A study of Mus musculus with 16 samples.

Results

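The regions described here are the stretches of accessible chromatin called in all 4 control baseline libraries of an ATAC-seq series, 43141 regions of the 85064 called in at least 1 of these 4 libraries. Peaks of the 4 lists that overlapped by at least 1 bp were joined into 1 region, on the main chromosomes, and a region was kept when each of the 4 lists held a peak in it. Over all 16 libraries of the series the same joining gave 102524 regions, of which 24955 were called in all 16. The cells came from bone marrow of male C57Bl/6 mice and are labelled haematopoietic stem cells, a name that here covers all marrow cells left after depletion with antibodies to CD3, CD4, B220, Ter119 and Gr1.

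The series has 4 groups of 4 libraries. Control baseline cells, the group analysed here, came from untreated non-diabetic mice and were lysed directly. The other 12 libraries are diabetic baseline cells from mice made diabetic with streptozotocin (STZ), control cells cultured with IL-1β (10 ng/mL, 6 h), and diabetic cells cultured with IL-1β in the same way. Each mouse sample was divided between the baseline and the IL-1β library. The depletion leaves a mixture that holds stem cells and committed progenitors, and which mature cells remain in it was not measured here. Every value is an average over that mixture. In such bulk libraries a locus open in few cells and a locus less open in many cells cannot be told apart. Nor can a locus open in progenitors be told from one open in mature cells that these antibodies do not remove. The spread given throughout is that between 4 mouse samples.

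ATAC-seq inserts sequencing adapters into DNA that is not covered by nucleosomes or other protein, so a peak of reads marks a promoter, an enhancer or another site held open by bound factors. Blood progenitors keep promoters of housekeeping genes open as all cells do, and hold open enhancers of lineage genes before those genes are fully expressed. Master regulators such as PU.1 (gene Spi1), GATA2, RUNX1 and FLI1 bind many of these enhancers, and C/EBP factors bind with PU.1 at granulocyte and monocyte genes.

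The stretches below are the 150 bases before the start site of 7 genes, from the RefSeq promoter table of GRCm38.p6, printed 5′ to 3′ on the gene's strand with each CpG in capitals. They are shown because promoters that lay in a region and promoters that did not differed in CpG content, as given further on. Ctnnbl1 (chr2:157737251-157737400 on the plus strand) and Mrps33 (chr6:39810937-39811086 on the minus strand) hold 2 of the strongest regions at a start site. Kit (chr5:75574837-75574986 on the plus strand), Gata2 at its second start site (chr6:88198514-88198663 on the plus strand) and Mpo (chr11:87793634-87793783 on the plus strand) are marker genes whose start site lay in a region. Klf1 (chr8:84901832-84901981 on the plus strand) and Cd79a (chr7:24897347-24897496 on the plus strand) are marker genes whose start site did not.
Ctnnbl1: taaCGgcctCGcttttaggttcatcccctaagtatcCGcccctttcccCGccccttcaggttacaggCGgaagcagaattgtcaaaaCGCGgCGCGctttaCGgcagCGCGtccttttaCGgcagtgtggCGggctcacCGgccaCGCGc
Mrps33: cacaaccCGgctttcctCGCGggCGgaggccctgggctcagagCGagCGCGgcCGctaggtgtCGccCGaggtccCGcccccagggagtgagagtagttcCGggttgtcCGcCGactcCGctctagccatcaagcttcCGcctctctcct
Kit: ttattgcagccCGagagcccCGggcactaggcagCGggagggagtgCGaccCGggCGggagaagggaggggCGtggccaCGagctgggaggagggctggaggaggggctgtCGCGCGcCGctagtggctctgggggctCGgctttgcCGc
Gata2: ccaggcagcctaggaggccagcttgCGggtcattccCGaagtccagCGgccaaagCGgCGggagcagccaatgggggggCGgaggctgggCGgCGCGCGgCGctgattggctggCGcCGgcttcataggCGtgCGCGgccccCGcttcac
Mpo: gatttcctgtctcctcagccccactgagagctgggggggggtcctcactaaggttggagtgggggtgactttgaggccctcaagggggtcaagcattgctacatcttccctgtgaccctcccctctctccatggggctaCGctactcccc
Klf1: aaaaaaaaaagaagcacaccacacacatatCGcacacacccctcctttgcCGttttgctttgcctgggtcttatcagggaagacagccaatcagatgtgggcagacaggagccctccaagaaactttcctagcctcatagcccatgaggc
Cd79a: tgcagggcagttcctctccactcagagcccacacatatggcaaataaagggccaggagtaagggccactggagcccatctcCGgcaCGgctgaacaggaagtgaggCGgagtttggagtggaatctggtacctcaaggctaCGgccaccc

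Ctnnbl1, Mrps33, Kit and Gata2 had 17, 16, 14 and 17 CpG in these 150 bases, while Mpo, the myeloperoxidase gene of neutrophil precursors, had 1. Klf1, the erythroid master regulator, had 2 and Cd79a, a chain of the B cell receptor complex, had 4. Ctnnbl1 encodes a spliceosome-associated protein and Mrps33 a subunit of the mitochondrial ribosome.

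The 4 lists held 67981, 62351, 72525 and 52477 peaks in libraries 1 to 4. Library 4 had the shortest list, and 86.2% of its peaks lay in regions of all 4, against 61.1% of the peaks of library 3, which had the longest list. Each line of a list gives a fold, the ratio of reads at the summit (the point of highest coverage) to the local background, as the authors' peak caller wrote it. Whole reads at each summit and the local background followed from the fold and its p-value for 99.999% to 100% of summits per library. Median summit reads over each list's own peaks were 22, 21, 24 and 22 in libraries 1 to 4, values that the threshold for calling a peak bears on. In the regions of all 4 libraries they were 31, 28, 36 and 24, and the lowest background was 1.13, 1.08, 1.71 and 1.32 reads. Library 3 was thus the highest in both, and library 4 had the fewest reads at the summits of these regions.

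Regions called in 1, 2, 3 and 4 of the libraries numbered 19036, 12066, 10821 and 43141, or 22.4%, 14.2%, 12.7% and 50.7% of the total. Their median width was 176, 250, 294 and 463 bp, and their median mean fold 4.06, 4.42, 4.85 and 7.56. The share within 1 kb of a gene end was 9.14%, 8.79%, 9.89% and 27.7%. The order in width and fold follows from the rule itself, since a region joins up to 4 peaks and a call in all 4 lists needs a signal above the threshold in each, and nothing is read from it. Of the regions called in 3 libraries, 6162 (56.9%) were missing from library 4 and 336 from library 3. Calls with −log10 q of at least 5 in the strongest list made up 27.0%, 64.3%, 88.4% and 99.4% of these 4 classes.

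Any 2 of the 4 lists shared 66.0% to 72.9% of the regions called in either, with a median of 68.2%. Over the regions of all 4, the Spearman correlation of folds between 2 libraries was 0.834 to 0.883 over the 6 pairs, and that of recovered reads 0.893 to 0.943. These are correlations across regions that share the local sequence, and regions are not replicates. The highest summit moved by 18 to 20 bp between 2 libraries (median), and 590 to 671 of the 1000 strongest regions of one library were among the 1000 strongest of the other. The coefficient of variation of the fold over the 4 libraries had a median of 12.8%.

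In the rest of the series, 25072 of the 43141 regions (58.1%) were called in all 12 other libraries, and 50 were called in none of them. All 4 diabetic baseline libraries called 74.2% of the regions, all 4 control IL-1β libraries 68.9% and all 4 diabetic IL-1β libraries 73.9%. Such a share depends on the shortest list of a group. List lengths of the other 12 libraries are not given here, so no loss or gain of regions is read from these shares. The control IL-1β libraries come from the same mouse samples as the control baseline ones. Of the decile with the highest mean fold, 99.6% were called in all 12, against 19.4% of the lowest decile. The 50 regions without another call had a median fold of 4.35. The strongest of them lay 23454 bp from Lpgat1, with folds of 4.69, 7.68, 7.74 and 5.60 in libraries 1 to 4.

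Kit, the receptor for stem cell factor and the classical surface marker of early progenitors, had 2 regions within 10 kb of its body. The first, chr5:75574729-75575934, covered its start site and was 1206 bp wide. Its folds were 10.1, 9.10, 8.59 and 7.90 in libraries 1 to 4 (mean 8.92 ± 0.92, SD, n = 4), with 50, 45, 62 and 38 reads at the highest summit. All 4 values lay above the median mean fold of all regions, 7.56. The second lay inside the body, 40822 bp after the start site, with folds of 4.69, 7.20, 6.64 and 4.74, and was called in 6 of the 12 other libraries. A further 2, 3 and 1 regions at Kit were called in 3, 2 and 1 of the 4 libraries.

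Gata2, a zinc finger factor needed for stem cell maintenance, also had 2 regions. At -4143 bp from its first start site the folds were 6.26, 8.11, 5.65 and 6.86 in libraries 1 to 4, and all 12 other libraries called the region. The region at its second start site, printed above with 17 CpG, had lower folds of 3.67, 3.76, 4.25 and 4.44 (mean 4.03 ± 0.37, SD, n = 4), and 10 of the 12 other libraries called it. The Gata2 start site thus lay below the median fold of all regions in each library, although its 150 bases had as many CpG as those of Ctnnbl1.

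Mpo had 4 regions, of which 1 overlapped the body. The strongest lay at -3508 bp, with folds of 7.35, 7.76, 9.11 and 5.93 in libraries 1 to 4 and 31, 25, 53 and 24 reads. At the start site itself, chr11:87793372-87794147, the folds were 3.75, 3.32, 4.40 and 3.67 and the reads 19, 12, 29 and 17. The upstream region exceeded the start site region in every library, and its mean fold was 7.54 ± 1.31 against 3.78 ± 0.45 (SD, n = 4). The start site region was called in 7 of the 12 other libraries and the upstream region in all 12. The other 2 regions lay nearer to Lpo, lactoperoxidase, with mean folds of 5.84 and 4.60.

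Spi1, encoding PU.1, had 5 regions, 4 of them in its body, and was the marker gene with the most. The strongest by fold, chr2:91096416-91097415, had folds of 10.5, 9.70, 10.0 and 12.2 in libraries 1 to 4, with 2 summits in each library. The region with the most reads, chr2:91082780-91083634, at the lower-coordinate end of the body, had 124, 109, 127 and 98 reads and folds of 8.18, 8.43, 6.68 and 7.95. A region outside that end by 960 bp, with a mean of 59.5 reads, had a mean fold of 4.41 ± 0.55 (SD, n = 4). Thus neighbouring regions at 1 gene differed in order between fold and reads.

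Klf1 had 4 regions, and its neighbourhood held the strongest region of the 6 marker genes. The region at -8090 bp had folds of 22.5, 19.4, 17.5 and 16.2 in libraries 1 to 4 (mean 18.9 ± 2.75, SD, n = 4) and stood in place 293 among the 43141 by mean fold. Its nearest gene was Gcdh, glutaryl-CoA dehydrogenase, not Klf1. The only region in the body, 1244 bp after the start site, had folds of 11.1, 8.15, 8.33 and 9.47. No region of all 4 libraries overlapped the promoter window of Klf1, which runs from 250 bases before to 50 after the start site.

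Cd79a had 4 regions within 10 kb but none in its body, and none had Cd79a as the nearest gene. The nearest genes were Rps19, a ribosomal protein, for the region at -6863 bp, with folds of 11.3, 11.2, 11.1 and 11.1 in libraries 1 to 4, and Arhgef1 for the other 3. The region with the most reads, 6784 bp after the start site, had 132, 126, 141 and 130 reads. The promoter window of Cd79a was not overlapped in all 4 libraries. A count of regions within 10 kb alone therefore does not separate Cd79a from Mpo or Klf1, which also had 4. Of genes whose products were used for depletion, a set chosen after their values were seen, Cd3e had 0 regions, Cd4 had 2 with 0 in the body, Ptprc (CD45) had 10 with 9 in the body, and Ly6g (part of Gr1) had 2 with 1 in the body. Since B220 is an isoform of CD45 and leukocytes in general use the gene, the Ptprc regions say nothing of B220 itself.

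**Figure D1:**
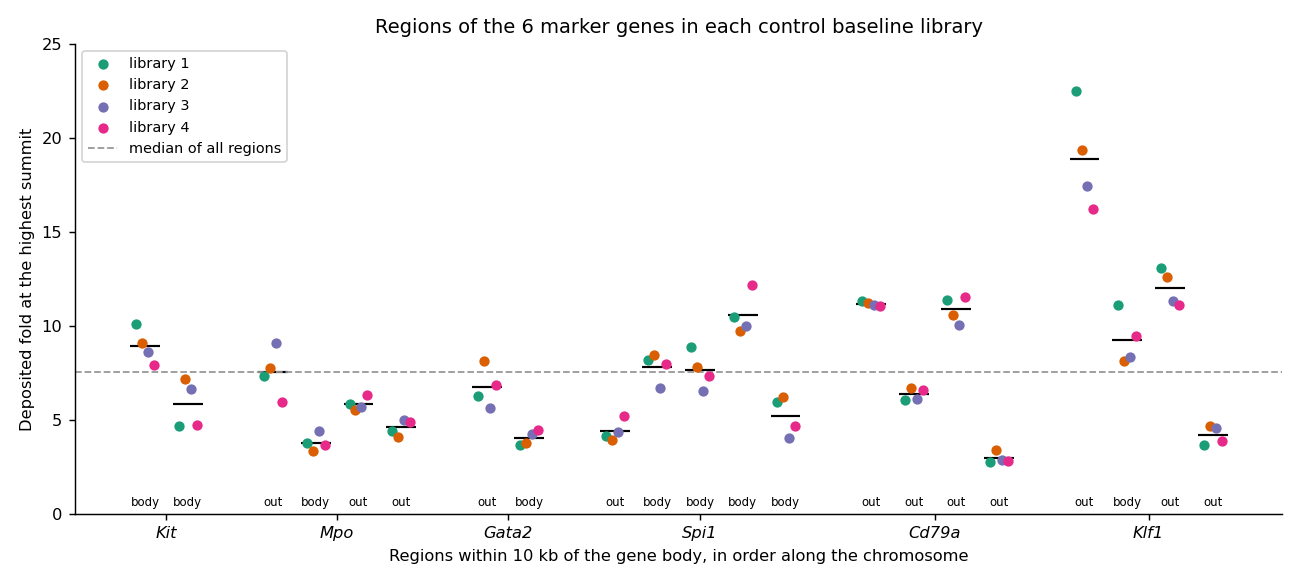
Deposited fold at the highest summit (vertical axis) of every region called in all 4 libraries within 10 kb of Kit, Mpo, Gata2, Spi1, Cd79a and Klf1, in order along the chromosome. Dots are libraries 1 to 4, black bars the mean of the 4, the dashed line the median mean fold of all regions (7.56), and "body" or "out" says whether the region overlaps the gene body. The Klf1 region with a mean fold of 18.9 stands above all others, and the start site region of Mpo (second of its 4) and the second Gata2 region lie below the line in each library.

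Lineage genes were read as 15 lists with 239 distinct genes, each scored by whether a region of all 4 libraries lay within 10 kb of the body. Over all 21887 protein-coding genes 69.4% (15200) had such a region, and 12.5% had 5 or more. In single libraries 16260, 15952, 16489 and 15625 genes had a peak within 10 kb. Since most genes pass, the lists are also given by regions per 10 kb, which stood at a median of 0.321 over all genes, and by promoter windows overlapped, which held for 52.6% of the 17492 genes with a start site in the promoter table. The lists were described only and no test was made. Their promoter windows also differ in CpG content, as given further on, and the promoter shares were not matched for it.

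Transcription factors and signalling genes of early progenitors (the heptad and progenitor factor list) had a region in 16 of 16 genes, in each of the 4 libraries alone, and a median of 0.869 regions per 10 kb. All 14 with a start site in the table had an overlapped promoter window. Etv6, an ETS repressor needed for adult stem cells, had 27 regions, all in its body, and only 3 of all genes had more. Its strongest region lay 29573 bp after a start site, with folds of 12.4, 15.5, 13.7 and 14.8 in libraries 1 to 4, while the region at its promoter window had a mean fold of 6.45. Runx1, the core binding factor of definitive haematopoiesis, had 19 regions, as had Cdk6, the kinase of cell cycle entry. The strongest region of Runx1 was 76392 bp after a start site (12.6, 12.5, 11.9 and 12.5) and that of Cdk6 158890 bp after one (9.06, 11.5, 10.2 and 9.55).

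In these 3 genes the strongest region was thus inside the body and far from a start site, and each promoter region was weaker, with mean folds of 6.45, 7.92 and 3.81 for Etv6, Runx1 and Cdk6. The remaining heptad genes ranged from 15 regions at Erg and 13 at Fli1 to 2 each at Kit and Gata2. In 5 genes of the list the promoter region was the strongest one, among them Flt3, the receptor of multipotent progenitors, with a mean fold of 13.6, and Kit, the stem cell factor receptor, with 8.92.

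Granulocyte-monocyte progenitor genes had a region in 16 of 16 and a median of 1.32 regions per 10 kb, and mature neutrophil genes in 15 of 15 with a median of 1.44, the highest of the lists. Promoter windows were overlapped in 11 of 13 and 13 of 14. Fcgr3, an IgG receptor, had 7 regions. Its strongest had folds of 9.83, 9.40, 9.01 and 9.11 in libraries 1 to 4. Csf3r, the G-CSF receptor, had 6, the strongest being nearer to Mrps15 (11.5, 13.8, 13.05 and 13.8), and Csf2rb, the shared chain of the GM-CSF, IL-3 and IL-5 receptors, had 6 (9.26, 7.20, 10.5 and 7.38).

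Of the mature neutrophil genes, Itgam, the CD11b integrin chain, had 8 regions and its strongest varied the most of these examples, with folds of 14.3, 9.38, 8.43 and 6.09 in libraries 1 to 4. Padi4, the enzyme that citrullinates histones, had 7 (strongest 8.38, 7.64, 7.80 and 5.30, nearest to Padi6) and Mmp9, gelatinase B, had 6 (9.72, 9.13, 7.92 and 10.5). Gr1, which marks the mature cells that express these genes, was among the depletion antibodies. S100a9, a calprotectin subunit, had 6 regions in 23.1 kb, none with a mean fold above 5.51, while their mean summit reads reached 112. Elane and Prtn3, neighbouring genes for proteases of primary granules, had 4 each within 10 kb but none in the body. Their strongest region, with a mean fold of 8.75, was shared. Prtn3 was the nearest gene of 3 regions and Elane of none.

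Monocyte and macrophage genes had a region in 13 of 15, without C1qa and C1qb, 2 complement genes of macrophages, which were each reached in 2 libraries at most. Cx3cr1, the fractalkine receptor, had 6 regions (strongest 12.1, 11.2, 10.8 and 11.3 in libraries 1 to 4), Lyz2, lysozyme, had 5 (9.66, 9.91, 8.55 and 6.96, nearest to Lyz1) and Ccr2, the receptor of inflammatory monocytes, had 4 (14.1, 10.1, 14.6 and 10.5). Dendritic cell genes had one in 14 of 14, with 13 at Zbtb46, a factor of classical dendritic cells, 11 at Tcf4, the E protein of plasmacytoid cells, and 4 at Cd74, the invariant chain. Only 4 of 11 dendritic cell genes had an overlapped promoter window, and that of Zbtb46 was not overlapped although 10 regions lay in its body.

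Erythroid genes had a region in 18 of 20, with a median of 0.490 regions per 10 kb. The other two were Hba-a1 and Hba-a2, near-identical copies of the alpha globin gene at which the authors' mapping may place reads on either, and each had a peak within 10 kb in every library but no region of all 4. Nfe2, a globin regulator, had 6 regions (strongest 9.60, 8.79, 8.94 and 9.46 in libraries 1 to 4). Ank1, the ankyrin of the red cell membrane, had 5 (15.0, 11.5, 13.4 and 12.2), all in the body. Ermap, a red cell surface protein, had 4, and the strongest of them (19.6, 21.2, 17.4 and 18.6) had Zfp691 as its nearest gene. Gata1, the erythroid and megakaryocyte master factor, had 1 region with a mean fold of 6.70.

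Megakaryocyte genes had a region in 16 of 17, yet an overlapped promoter window in only 2 of 13. Fli1, an ETS factor that is also on the heptad list, had 13 regions, all in its body (strongest 7.63, 8.44, 9.58 and 9.46 in libraries 1 to 4). Vwf, von Willebrand factor, had 9 in its body (12.2, 13.2, 10.6 and 11.2), and Plek, pleckstrin, had 9 (11.6, 12.99, 11.6 and 8.59). Pf4 and Ppbp, neighbouring chemokine genes of platelets, shared a region with a mean fold of 4.65 and had none in the body. Treml1 had no peak within 10 kb in any of the 4 libraries.

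Stem cell genes had a region in 16 of 18, without Slamf1 (CD150) and Tek (TIE2), and an overlapped promoter window in 6 of 13. Their median of 0.304 regions per 10 kb was close to the 0.321 of all genes. Angpt1, a ligand of TIE2, had 8 regions (strongest 10.5, 13.6, 13.1 and 8.82 in libraries 1 to 4). Meis1, a homeodomain factor, had 5 (17.0, 19.0, 14.1 and 12.3). Mecom and Prdm16, related zinc finger factors of long-term stem cells, had 2 each in windows of 578.5 and 341.2 kb, with no overlapped promoter window. Slamf1 had regions in at most 2 libraries and Tek in at most 1. The stem cell list was thus less dense in regions than the granulocyte-monocyte progenitor and mature neutrophil lists, with a median window of 74.4 kb against 29.9 and 28.4 kb. Windows of unlike length bear on this density, so nothing about the label haematopoietic stem cell is read from it. A name such as lineage-depleted progenitors would rest on the depletion alone, and which mature cells remained was not measured.

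Mast cell, basophil and eosinophil genes had a region in 10 of 16. Hdc, histidine decarboxylase, had 7 (strongest 13.1, 12.9, 11.7 and 10.2 in libraries 1 to 4, nearest to Slc27a2), and Mitf, a transcription factor of mast cells, had 6. The strongest of Mitf was at a start site, with folds of 18.9, 19.2, 15.9 and 22.2. Ccr3, the eotaxin receptor, had 2 outside its body (strongest 13.7, 10.2, 12.7 and 9.68).

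Lymphoid priming genes, which early lymphoid progenitors express, had a region in 9 of 10. Mef2c, a MADS box factor, had 11 (strongest 15.5, 16.1, 13.3 and 15.7 in libraries 1 to 4), Bcl11a, a zinc finger repressor, had 9 (14.1, 12.8, 12.5 and 13.9) and Notch1, the receptor of T lineage commitment, had 7 (11.9, 11.6, 10.7 and 10.8). Dntt, the polymerase of V(D)J junctions, was the other one, with 2 regions called in 3 libraries. B cell genes had a region in 11 of 15 and in the body in 6 of 15, against 61.7% of all protein-coding genes (13507) with one in the body, and 1 of 10 promoter windows was overlapped. Cd72, a B cell coreceptor, Ikzf3 (Aiolos) and Cd79a had 4 each, and the strongest of Cd72 (14.9, 14.2, 12.01 and 15.97) and of Ikzf3 (13.7, 11.9, 12.03 and 12.8) lay nearest to Tesk1 and Mien1. Ms4a1, Blk and Pou2af1 were among those with none.

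T and NK cell genes had a region in 12 of 17 and an overlapped promoter window in 3 of 15. Cd247, the CD3 zeta chain, had 5 regions, and its strongest (11.1, 9.81, 9.62 and 9.88 in libraries 1 to 4) was nearest to Creg1. Lck, the kinase of T cell receptor signalling, had 4, the strongest (18.9, 18.5, 18.6 and 17.2) nearest to Hdac1, and Cd5, a T cell surface receptor, had 4 (13.02, 8.82, 10.5 and 6.03). Bcl11b, Cd3e, Cd8a, Klrb1c and Ncr1 had none, and Cd8a and Ncr1 had no peak in any of the 4 libraries. The shares with a region on the mast cell, B cell, and T and NK cell lists, 62.5%, 73.3% and 70.6%, lie near the 69.4% of all genes and are not read as a difference.

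Genes of stroma and endothelium had a region in 7 of 16 and none of 10 promoter windows overlapped, below the 69.4% and 52.6% of all genes. Pecam1, CD31, which haematopoietic cells also carry, had 10 regions (strongest 9.38, 7.61, 8.86 and 4.98 in libraries 1 to 4), Pdgfrb, a receptor of perivascular cells, had 3 (10.1, 9.95, 9.13 and 8.79) and Col1a1, a collagen chain, had 2 (15.9, 16.3, 14.9 and 11.99). Lepr and Cxcl12, markers of the marrow niche, had none. Genes of liver, muscle and neurons had a region in 6 of 18, Ckm, Actn2, Fgb, Apoa1, Snap25 and Neurod1, and 1 of 15 promoter windows overlapped, that of Actn2 (12.3, 8.85, 10.6 and 10.6). The strongest of these, near Fgb with a mean fold of 17.8, was nearest to Plrg1, a spliceosome gene. Summed over these lists the regions numbered 21 in 16 genes and 9 in 18 genes, and 69 in the 15 genes of mature neutrophils.

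Housekeeping genes had a region in 18 of 18 and all 13 promoter windows overlapped. Eef2, an elongation factor, had 7 (strongest 16.2, 17.3, 13.5 and 17.0 in libraries 1 to 4, nearest to Pias4), B2m, the light chain of class I molecules, had 5 (9.31, 9.12, 7.77 and 9.63) and Rpl3 had 4 (14.6, 15.5, 13.5 and 15.2). The strongest region per gene had a median fold of 11.6 and 116.5 reads here. On the heptad, granulocyte-monocyte progenitor and mature neutrophil lists that median fold was 8.94, 9.04 and 8.98, all below the 12.1 of all protein-coding genes with a region. Every other list but lymphoid priming (12.2) also lay below it, the mast cell, basophil and eosinophil list lowest (6.67). A median below that of all genes is thus not particular to progenitor or neutrophil lists. In regions per 10 kb the median was 0.865 for housekeeping genes, next to the 0.869 of the heptad list, and the monocyte, megakaryocyte, dendritic cell, B cell, and T and NK cell lists (0.878, 0.730, 0.711, 0.394 and 0.396) also lay above the 0.321 of all genes. A density above that of all genes is thus not particular to progenitor or neutrophil lists.

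**Figure D2:**
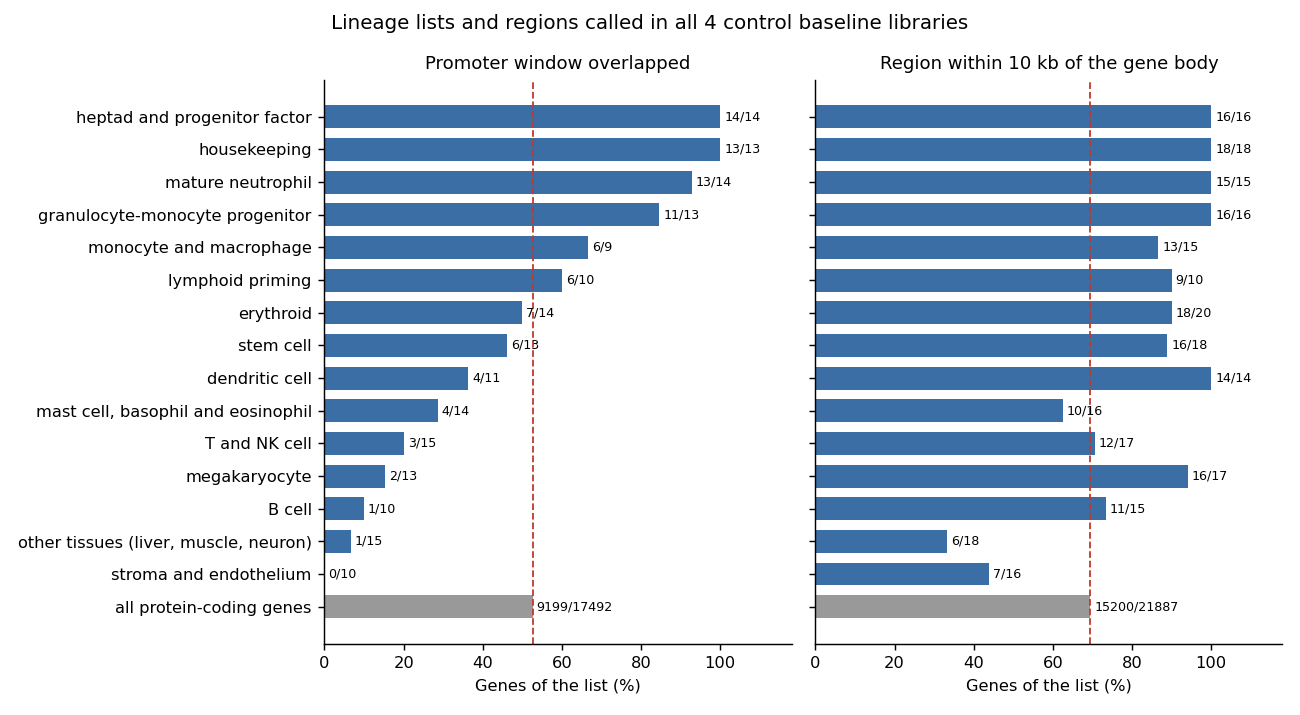
Share of genes (horizontal axes, percent) whose promoter window overlapped a region called in all 4 libraries (left) and share with such a region within 10 kb of the body (right), for 15 lists and, in grey, all protein-coding genes; the dashed lines mark the latter (52.6% and 69.4%). Fractions give genes over genes with a start site in the table (left) or matched genes (right). Promoter shares run between 100% (14 of 14 heptad genes) and 0 of 10 for stroma and endothelium, while the megakaryocyte list is low on the left (2 of 13) and high on the right (16 of 17).

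Without regard to lists, the genes with the most regions were Foxp1 (38), Pde4d (35), Arhgap26 (29), Gse1, Etv6 and Sgms1 (27 each), Zmiz1 (26), Asap1 (25), and Itpr2, Iqgap2 and Prkce (23 each). Foxp1 is a forkhead repressor that acts in lymphoid and monocyte development, Pde4d a cAMP phosphodiesterase and Zmiz1 a coactivator. Their windows ran between 228.9 and 1321.8 kb, and the Spearman correlation of region number with window length over all genes was 0.349. Only 397 genes (1.81%) had 10 or more regions and 30 had 20 or more. Among genes with at least 5 regions, the densest was the histone gene H2ac10, with 8 regions in a 20.5 kb window, in a cluster whose neighbouring genes share regions.

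The strongest single region, chrX:143482911-143483205, 295 bp wide and 35161 bp from Pak3, had folds of 32.3, 31.2, 31.0 and 33.8 in libraries 1 to 4 (mean 32.1 ± 1.3, SD, n = 4) and 76, 76, 83 and 87 reads. The next, at the start site of 3110082I17Rik, had a mean fold of 23.8 ± 2.22. The 4 values of the Pak3 region all exceeded the 4 values of the next one, of which the highest was 26.6. Of the 20 strongest regions 11 lay within 1 kb of a gene end. Over all 43141 regions the share this close to an end was 27.7%. All 20 were called in all 12 other libraries, as were 58.1% of all regions and 99.6% of the top decile by fold. None had a gene of the 15 lists as its nearest gene. The lists hold only 239 of 21887 protein-coding genes, so this count says little. The 20 regions with the most reads, given below, had none either. The 20 strongest regions include start site regions of Ctnnbl1 (22.5, 22.5, 22.3 and 23.0), Mrps33 (21.2, 24.2, 21.0 and 21.6), Scfd1, Mrnip, Cox5b and Wdr19, with mean folds of 21.5 to 22.6. Regions nearest to Gng4 and Cd83 lay 61503 and 61271 bp from those genes, with mean folds of 22.8 and 21.6.

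Among the remaining strong regions those of Mrps27, a mitochondrial ribosome subunit, and of Ctif lay inside the body, with mean folds of 23.6 and 21.9. Those of Yipf5, Zmat2, Zfand1 and Pgam5 lay at a gene end, with 22.7, 21.8, 21.8 and 21.7. Gltp, Lrfn3, Hepacam2 and Uspl1 were the nearest genes of regions outside any gene body, between 1556 and 13498 bp away.

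Ranking by reads gave other regions. The 20 regions with the most mean reads at the highest summit, a ranking chosen after the data were seen, shared none with the 20 of highest fold. They are led by Ripk2, a kinase of NOD receptor signalling, with 181, 187, 196 and 170 reads in libraries 1 to 4 at folds of 11.1, 11.7, 10.6 and 11.9, and Hjurp, a centromere chaperone, with 177, 181, 196 and 166 reads. Of these 20 regions 18 lay within 1 kb of a gene end. Those at Ipo5 and Osbpl2 did not, but each overlapped a start site, with summits at -178 and -58 bp from it. The 20 regions had a median width of 1390.5 bp and a median fold of 10.4. Jund, an AP-1 subunit, had a mean of 171.5 reads over a local background of 41.7 and a mean fold of only 4.06. Btg1, an antiproliferative gene, had 173.25 reads over 26.1 and a fold of 6.48.

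Across all 43141 regions the Spearman correlation of mean fold with mean reads was 0.627, that of fold with local background 0.100 and that of reads with background 0.818. These describe regions of the same 4 libraries, and background and reads come from the same libraries since no separate control is named. Of the top decile by fold, 1740 of 4315 (40.3%) were also in the top decile by reads. At the other end, the 5 regions with the lowest fold, near Frmd8, S100a9, Trem1, Klf6 and Sfi1, had mean folds of 1.79 to 1.96 with 45.25 to 88 reads over backgrounds of 22.8 to 48.9. The S100a9 region had 47, 46, 47 and 46 reads and folds of 2.13, 1.81, 1.66 and 2.09 in libraries 1 to 4. S100a9 and Trem1, an activating receptor of myeloid cells, are genes of neutrophils and monocytes. Their regions were called in 2 of the 12 other libraries each, and those near Klf6, Sfi1 and Frmd8 in 3, 5 and 7.

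**Figure D3:**
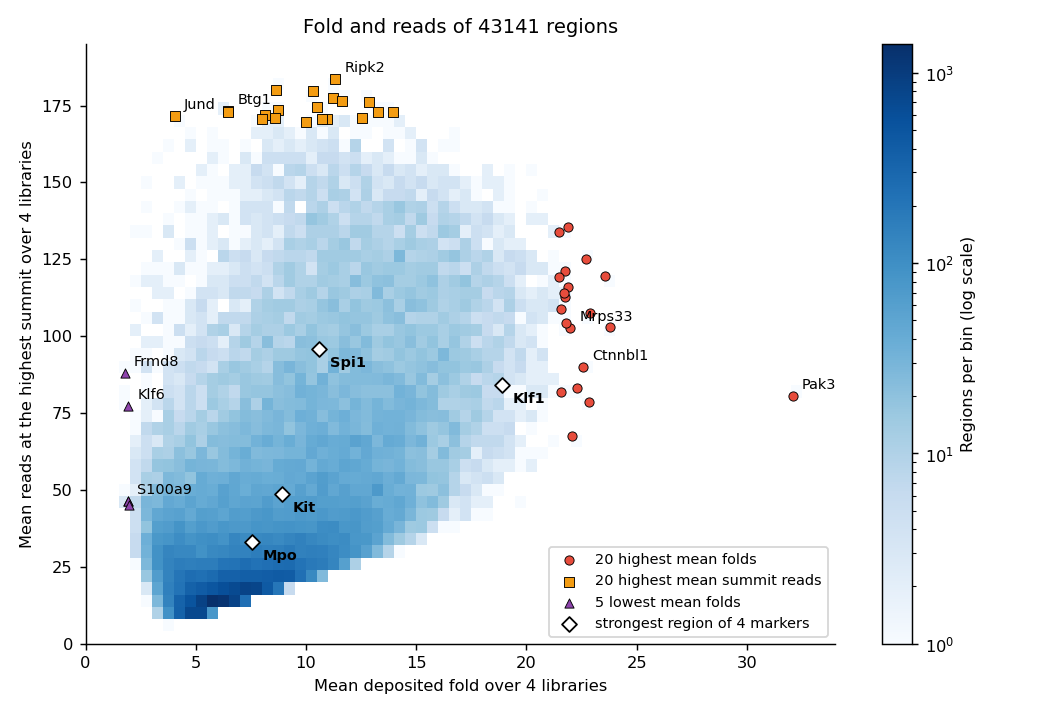
Mean reads at the highest summit (vertical axis) against mean deposited fold (horizontal axis) over the 4 libraries for all 43141 regions, with shading for the number of regions per bin on a log scale. Red circles are the 20 regions of highest fold, orange squares the 20 of most reads, purple triangles the 5 of lowest fold, and white diamonds the strongest region of Kit, Mpo, Spi1 and Klf1. The red and orange sets do not meet, and the lowest folds include regions with 88 and 77.25 reads.

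By position, 11950 regions (27.7%) lay within 1 kb of either end of a protein-coding gene, called near a gene end below. Another 17218 (39.9%) lay inside a body away from its ends, 4794 (11.1%) outside within 10 kb, 5826 (13.5%) at 10 to 50 kb and 3353 (7.77%) beyond 50 kb. The class inside a body also holds regions at start sites within the body, such as those at Ipo5 and Osbpl2. Regions near a gene end had a median width of 775 bp and 65.5 reads, those inside a body 415 bp and 24.75 reads, and those beyond 50 kb 428 bp and 22 reads. The median mean fold was 10.2, 6.88 and 7.41 in the same classes. Called in all 12 other libraries were 83.4%, 48.0% and 48.0% of them.

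In library 1 the median fold was 10.5 near a gene end and 7.50 elsewhere, in library 2 10.6 and 7.16, in library 3 9.86 and 7.07, and in library 4 9.93 and 6.25. The 4 values near a gene end all exceeded the 4 elsewhere, and the mean difference was 3.23 ± 0.40 (SD, n = 4; two-sided exact sign-flip permutation test, p = 0.13, the smallest p that 4 libraries allow). Summits per region averaged 1.59, 1.58, 1.62 and 1.48 near a gene end and 1.16, 1.16, 1.18 and 1.13 elsewhere, a mean difference of 0.41 ± 0.04 (SD, n = 4, exact p = 0.13). Neither test can pass 0.05 with 4 libraries, so the difference is given by its size and by its sign in 4 of 4 libraries.

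The share near a gene end was 63.9% in the top decile by fold, 13.6% in the 9th decile and 21.2% in the lowest. By reads it was 80.9% in the top decile and 9.34% in the lowest. The lowest decile by fold had a median of 25.25 reads, more than the 15.75 of the 9th decile. The shares thus rise again at the low end of the fold ranking and not at that of the reads.

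**Figure D4:**
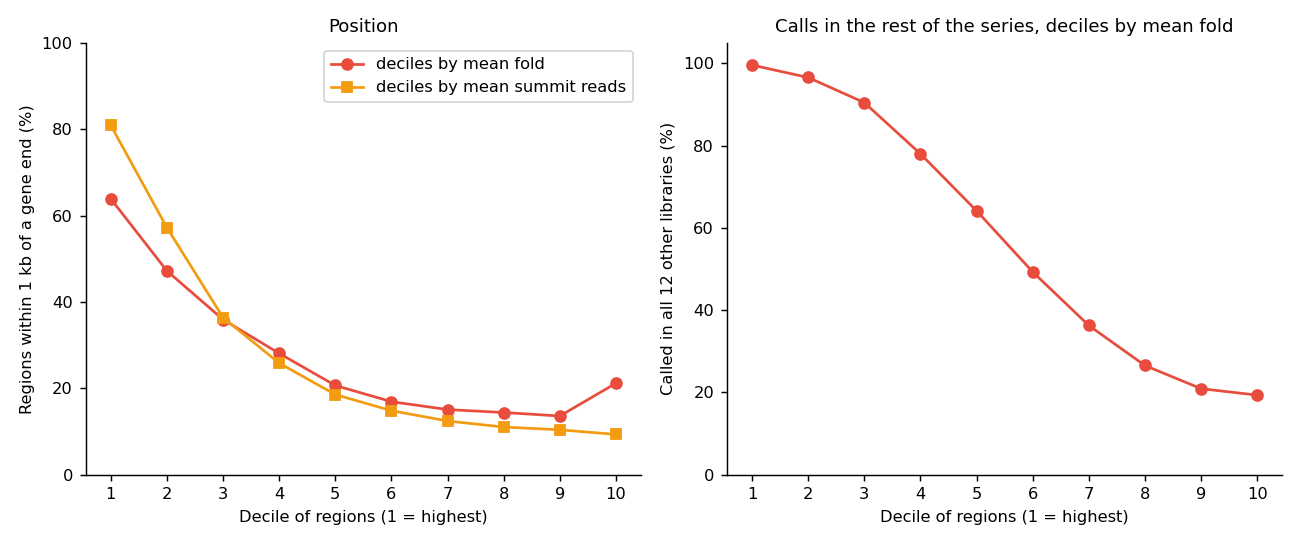
Left, share of regions within 1 kb of a gene end (percent) in each decile of the 43141 regions, ranked by mean fold (circles) or by mean summit reads (squares), decile 1 being the highest. Right, share called in all 12 other libraries (percent) by decile of fold. The share near a gene end is 63.9% in decile 1 by fold and 80.9% by reads, and the share called elsewhere is 99.6% in decile 1 and 19.4% in decile 10.

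Width lay between 150 and 3447 bp with a median of 463. In all 4 libraries 29453 regions (68.3%) had 1 summit and 5532 (12.8%) had several, while 8156 (18.9%) had 1 in some libraries and several in others. Regions with several summits in all 4 had a median width of 1034 bp, 73.5 reads and 60.3% near a gene end, against 385 bp, 24.25 reads and 17.2% for those with 1. In 75.3% of regions the number of summits was equal in all 4. The widest were at LOC108167694 (3447 bp, 8 summits on average), Csf2ra, the GM-CSF receptor chain (2898 bp), Tsc22d2 (2719 bp), Nr3c1, the glucocorticoid receptor (2707 bp), and Rhob (2531 bp). Stat6, the factor of IL-4 signalling, came second by summits with 6.75, followed by Gm38664, H2ac21, a histone gene, and Gm52799 with 6 each.

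Strand and start sites came from the RefSeq promoter table, which holds 79.9% of the protein-coding genes. Of the regions on the chromosomes it covers, 9876 (23.5%) lay within 1 kb of a start site. The highest summit of 9506 of them fell within 1 kb, at a median of -35 bp with quartiles of -86 and 14 bp, and 68.9% of these summits were upstream. The fullest bin of 50 bp ended at the start site and held 2686 summits, and 56.8% lay within 150 bp upstream. Summits at Ctnnbl1, Mrps33 and Kit followed this, at -30, -37 and -30 bp, while that of the Mpo start site region was at -204 bp.

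**Figure D5:**
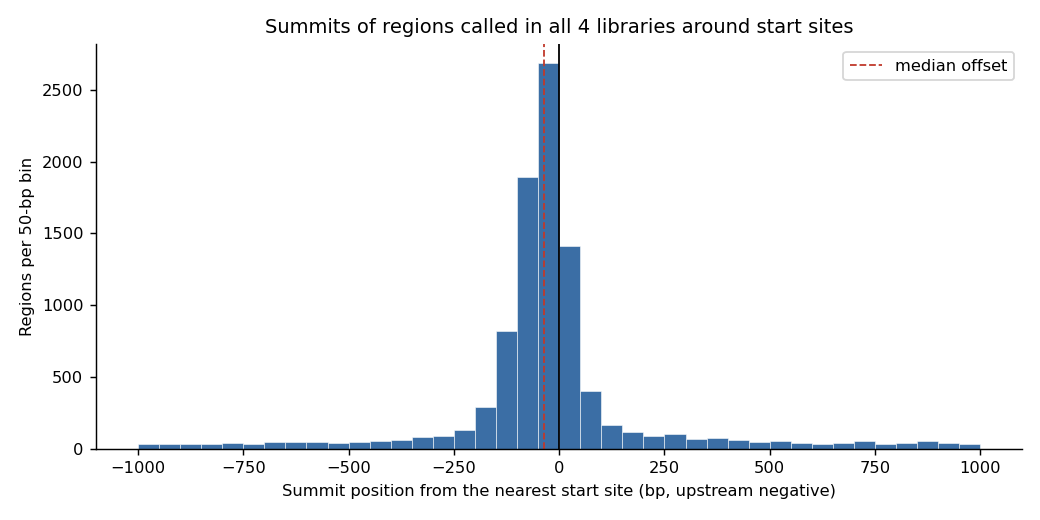
Number of regions (vertical axis) by the distance of their highest summit from the nearest start site in bins of 50 bp (horizontal axis, upstream negative), for the 9506 regions with a summit within 1 kb. The solid line marks the start site and the dashed line the median at -35 bp. The fullest bin holds 2686 regions and lies directly upstream of the start site.

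Regions overlapped 10710 of 21263 promoter windows (50.4%). The ratio of observed to expected CpG had a median of 0.796 in overlapped windows and 0.246 in the others, and the GC content 62.0% and 49.7%. Of windows with a ratio of at least 0.6, 82.8% were overlapped, against 20.8% of those below it, and the median fold of the overlapped ones was 11.7 and 8.97. Among the sequences printed above, Ctnnbl1, Kit and Gata2 thus stand for the CpG-rich kind and Mpo for the 20.8% of CpG-poor windows that were overlapped. The lists differed in this ratio too, taken as the median over genes of the highest ratio per gene. It was 0.875 for the heptad list (14 of 14 overlapped), 0.855 for housekeeping (13 of 13) and 0.202 for megakaryocyte genes (2 of 13). Mature neutrophil genes stood at 0.183 (13 of 14), stroma and endothelium at 0.554 (0 of 10) and all genes at 0.610. Whether CpG content accounts for the list shares was not tested.

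Letters of 8 factor motifs were counted on both strands of these windows of 300 bases, where a match is a match of letters only. The NRF1 letters GCATGCGC stood in 5.87% of overlapped windows and 1.13% of the others (3.52% of all), and the CTCF letters AGGGGGCGC or AGGTGGCGC in 3.37% and 1.04% (2.22% of all), both of which hold CpG themselves. The C/EBP letters TTGCGCAA, which also hold CpG, were rare, at 0.336% and 0.104% (0.221% of all). The shares were lower in overlapped windows for the GATA letters AGATAA, at 5.48% and 13.9% (9.65% of all), for the AP-1 letters TGAGTCA at 3.07% and 6.26% (4.66% of all), for the RUNX letters TGTGGTT at 3.57% and 5.88% (4.71% of all) and for the E-box letters CAGCTG at 13.6% and 17.5% (15.6% of all). The ETS letters of the PU.1 kind, GAGGAAGT, stood at 3.41% and 2.85% (3.13% of all). None of these strings contains another.

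Within windows with a CpG ratio below 0.6, of which 2315 were overlapped and 8811 were not, GAGGAAGT stood in 6.39% and 3.19%, AGATAA in 10.8% and 15.5%, TGTGGTT in 6.83% and 6.63%, TGAGTCA in 5.87% and 6.86%, and CAGCTG in 17.8% and 18.1%. The NRF1 letters stood in 1.90% and 0.636% (44 and 56 windows), the CTCF letters in 1.73% and 0.363% (40 and 32 windows) and the C/EBP letters in 0.216% and 0.0908% (5 and 8 windows). The shares with ETS, NRF1, CTCF and C/EBP letters were thus higher in overlapped CpG-poor windows, on few windows for C/EBP. Those with GATA and AP-1 letters were lower there, and the RUNX and E-box shares lay close to those of the other windows. The NRF1, CTCF and C/EBP letters hold CpG themselves, and CpG content was not matched within the CpG-poor windows. Promoters are 1 part of the regions only, and sequence outside them was not analysed here.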

How the data were processed

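Per the labels' protocols, Tn5 cut nuclei of 50000 cells per replicate, size selection left out fragments over 1200 bp, and sequencing gave 50-bp single reads. The submitters' processing notes name the build mm10, MACS2 2.1.1, Bowtie2 2.2.6, Trim Galore 1.8, DiffBind 2.4.8, FastQC 0.11.3 and edgeR, without saying which did what. A Tn5 shift, which moves summits by some bases, and duplicate removal, which lowers their reads, are not given in the sources used here. The authors deposited 1 peak list per library, with 1 line per summit, each with a score, a fold (ratio over local background), a −log10 p and a −log10 q. In at least 99.97% of lines the authors' score equals 10 times −log10 q without its decimals. No control library is named, so the background is taken as local to each library. The total read number per library is not in the peak lists used here, and depth is given as reads at summits.

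With Python 3.11.15, pandas 2.3.3, numpy 2.4.6 and scipy 1.17.1, peaks of the 4 control baseline lists were joined where they overlapped by at least 1 bp, and the fold of a region is that of its highest summit in each library. Whole reads n and background λ were solved from the deposited fold, (n + 1) / (λ + 1), and the Poisson p, within 0.001; on simulated peaks 98.7% of 4623 summits returned their reads and 810 of 810 regions were found. Genes, start sites and promoter sequences came from RefSeq (GRCm38.p6, whose coordinates mm10 shares) and cover 21887 protein-coding genes; positions are 1-based. The gene table used has no strand, so nearness to a gene was taken from both ends of the body, and the promoter table used has no windows for 1 chromosome. No groups were compared; the other 12 libraries served only to count calls. Columns without a sample numbered 0.

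Named genes are the 6 markers, the 20 regions of highest mean fold (1 per nearest gene), 3 genes per list with the most regions (ties by highest fold), every gene of other tissues with a region, the 10 genes with most regions (and 1 tied with the last), the 5 widest regions and the 5 with most summits, and genes without a region where a list has 5 or fewer; other genes named were chosen after their values were seen, and some genes of the lists are not reported here. Members and lists were chosen with earlier results of these data known. Alternatives were −log10 q of at least 5, an overlap of at least 50% of the shorter peak, equal list lengths, 2.5 kb, 50 kb, the gene body alone, ranking by −log10 p or recovered reads, and leaving out each library.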

Additional observations from a re-analysis of the deposited data

Results flagged for a closer look

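Of 54 sets of 4 library values examined, 2 (3.70%) had 1 library far from the other three by Dixon's ratio of gap to range, above the 95% critical value for 4 values; chance gives about 1 in 20. The median peak width was 299, 298, 298 and 293 bp in libraries 1 to 4, and library 4 lay apart with a ratio of 0.833. The weakest region near Cd79a, chr7:24904978-24905210, had folds of 2.78, 3.40, 2.88 and 2.81, and library 2 lay apart with a ratio of 0.839.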

How the results depend on the processing

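Of 207 recomputed values, 183 stayed near the reported one and 24 moved. For shares, widths, summits and correlations near meant within 1 SD between libraries or library pairs. For counts the margin was wide: megakaryocyte genes with a region went from 16 to 11 with the gene body alone and still counted as near. Only the differences in fold and in summits near a gene end have a direction, and they were counted as near when their sign stayed the same, as it did throughout. With −log10 q of at least 5 the share near a gene end was 32.3%, the share overlapping a gene body, ends included, 67.5% (65.5% without this threshold), the median width 525 bp, the mean summits per region 1.31 and the mast cell, basophil and eosinophil genes with a region 6. With equal list lengths these were 30.1% near a gene end, 496 bp and 1.29 summits. The number of regions of all 4 libraries fell from 43141 to 33523 with −log10 q of at least 5 and to 37352 with equal list lengths. Within 2.5 kb the share near a gene end was 34.6%. The gene body alone left 6 of 16 mast cell, basophil and eosinophil genes and 6 of 15 B cell genes, against 13507 of all 21887 (61.7%). With 50 kb it was 11 of 16 stroma and 13 of 18 other-tissue genes, against 17197 of all genes, so most of their shortfall within 10 kb closed. Ranking by −log10 p kept 1 of the 20 strongest regions and ranking by recovered reads, added after seeing the data, kept 0. Leaving out 1 library gave a median width of 424 to 434 bp, 1.25 summits per region (1.245 to 1.253) and 25.4% to 27.6% near a gene end, the lowest without library 4; regions numbered 43791 to 49342. The fold difference near a gene end lay between 2.25 and 3.35 over the alternatives, with exact p = 0.13, or 0.25 with 3 libraries, the smallest possible. No paired analysis was possible because no groups are compared. Depth limits the weak calls: regions of all 4 libraries had at least 7.75 mean summit reads, and a locus without one may still be open in few cells.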

Other observations

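On chromosome X, present once in these male cells, start site regions had 51, 51, 63 and 45 median reads at the highest summit in libraries 1 to 4, and autosomal ones 71, 70, 83 and 62, a ratio of 0.718 to 0.759 (319 and 9553 regions). Their median folds were 11.6, 11.7, 11.3 and 11.3 on chromosome X and 10.8, 10.8, 10.1 and 10.3 on autosomes, so the order by fold is the opposite of that by reads. Promoter windows were overlapped in 36.4% of genes on chromosome X (297 of 817) and 54.1% of genes on autosomes.

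Zfp36, which encodes a protein that speeds decay of inflammatory mRNAs, had 8 regions in a window of 22.4 kb. Its strongest region had a mean fold of 4.44, while mean summit reads reached 149.5.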
